A study of Ficus obtusifolia with 4 samples.

Results

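The transcripts described here are the auxin genes of fig flowers, taken by the words of their protein match: every transcript whose description, in upper or lower case, contained "auxin", "indole-3-acetic", "iaa-amino", "aux iaa" or "saur". The words chose 162 of 54550 assembled transcripts. No expression value entered the rule, but the words were chosen with earlier results of these data known. RNA was sequenced from Ficus obtusifolia, a monoecious fig whose closed inflorescence, the syconium, is entered by a pollinating wasp called the foundress. All flowers came from 1 recipient tree, with 1 library for each of 4 flower types, each made from a pool of many flowers taken from several syconia. Gall flowers were those nearest the lumen and seed flowers those nearest the syconium wall, sorted by position alone. Receptive flowers were collected before a foundress entered, and pollinated flowers 24 hours after 1 Pegoscapus hoffmeyerii female had been put into each bagged syconium. Position therefore stands in for flower fate, 1 tree stands for the species, and the pollinated state joins entry of the wasp, pollen and, in gall flowers, oviposition, which cannot be told apart.

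Auxin, chiefly indole-3-acetic acid (IAA), is the plant hormone of cell expansion, organ outgrowth and fruit set. Cells adjust its level by joining it to amino acids (GH3 amido synthetases) and releasing it again (IAA-amino acid hydrolases), and move it with influx and efflux carriers. Bound to F-box receptors of the TIR1 and AFB family, it leads to the breakdown of Aux/IAA repressors, which frees auxin response factors to drive early genes such as the SAUR genes (small auxin up RNA). These roles are known mainly from Arabidopsis and other model plants, and in the fig each name rests on a protein match.

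The 162 transcripts were grouped by words of the description. There were 14 transcripts of conjugation and release, 12 of transport, 17 response factors, 2 receptors or binding proteins, 14 Aux/IAA, 52 SAUR, 4 auxin-repressed or dormancy-associated proteins, 17 matching the auxin-induced protein 5NG4, and 30 others. Their lengths ran from 110 to 8937 bp, and the median, 1315.5 bp, compares with 449 bp over all transcripts. Values are RPKM, read counts divided by the length of the transcript and the size of the library, and 4 values in a row are always in the order receptive gall, receptive seed, pollinated gall and pollinated seed. An RPKM above 20 in at least 1 library was reached by 75 of the 162 (46.3%), against 19.1% of all transcripts, and 104 had a mean RPKM above 5, the minimum used for medians.

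Mapped reads numbered 51063005, 11584069, 58969477 and 22141107, so a floor of 3 reads was 0.0588, 0.259, 0.0509 and 0.135 RPKM for a transcript of 1 kb. The auxin transcripts took between 0.756% and 0.852% of the reads of a library, and reads of more than 1 possible origin were 1.11% of theirs. The receptive seed library was the shallowest, and short transcripts had higher values in it than in the other receptive library. Among the 490 transcripts whose description named a hymenopteran genus, the wasp sign used here, reads numbered 24, 2, 45219 and 23. Reads of the 15 transcripts with pollen words summed to between 941 and 1024 RPKM in the 4 libraries. No spread between samples of a flower type is known, intervals given with ratios are 95% and cover counting error only, and a lower level may mean fewer cells of a type or less RNA per cell, which cannot be told apart.

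A transcript was counted as changed when its RPKM differed at least 2-fold and exceeded 20 in a library compared. In receptive gall against receptive seed flowers, 7 of 68 auxin transcripts above that minimum were higher and 19 were lower, while over all transcripts 18.2% were higher and 23.3% lower. Pollinated gall flowers differed from pollinated seed flowers in 8 higher and 6 lower of 60 (9.45% and 4.91% of all transcripts). From receptive to pollinated gall flowers 6 of 62 rose and 11 fell (6.92% and 5.80% of all). In seed flowers 5 of 68 rose and 18 fell (10.9% and 11.4% of all). Most transcripts that fell belonged to the SAUR and auxin-repressed groups, and most that were higher in pollinated gall flowers were hydrolases or 5NG4 proteins. Kal's Z-test, the test of the study, compares 2 libraries rather than 2 conditions. With Benjamini-Hochberg adjustment and an RPKM above 20 in any library it called 15 higher and 15 lower of 75 between the receptive libraries, 8 and 10 between the pollinated libraries, 7 and 12 between the gall libraries, and 12 and 18 between the seed libraries. The shares of all transcripts were 23.6% and 17.6%, 9.38% and 6.69%, 8.38% and 6.66%, and 18.3% and 9.77% in the same order.

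**Figure D1:**
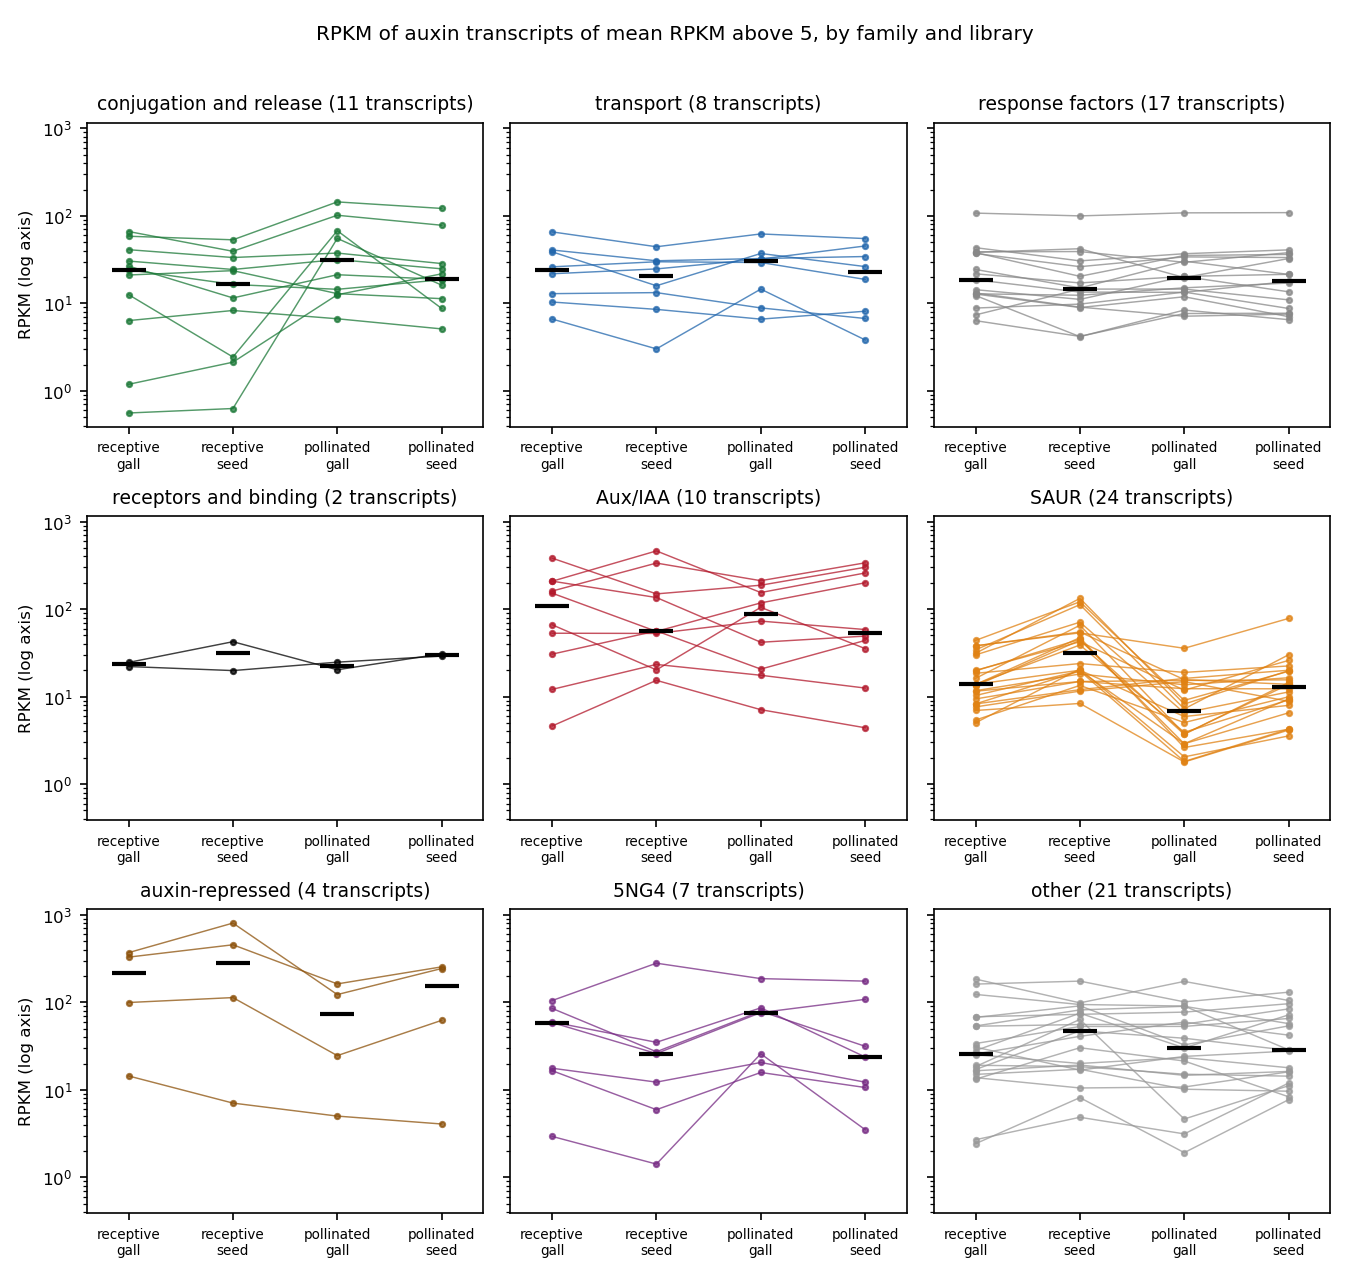
RPKM (log axis) of the 104 auxin transcripts of mean RPKM above 5 in the 4 libraries, 1 panel for each group. Points joined by a line are 1 transcript and black bars are medians of the group. Response factors run nearly level, SAUR transcripts are mostly highest in receptive seed flowers (20 of 24) and lowest in pollinated gall flowers (17 of 24), and 3 transcripts of conjugation and release start low and climb after the foundress.

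Transcripts of conjugation and release summed to 293, 218, 518 and 361 RPKM, higher after the foundress in both flower types, and the higher sum lay in the hydrolases. In gall flowers the rise of the sum, 1.77-fold, rested on a few members, since the median log2 ratio of the group was 0.07. In seed flowers the median log2 ratio was 0.71, a ratio of 1.63 beside 1.66 for the sums. There 8 of 11 transcripts of mean RPKM above 5 had a higher value after the foundress, and 7 of 11 in gall flowers. The 9 IAA-amino acid hydrolases, which free IAA from its amino acid conjugates, summed to 205, 142, 439 and 280 RPKM, so their summed level was 2.14 times higher in pollinated than in receptive gall flowers and 1.97 times higher in pollinated than in receptive seed flowers. The 5 amido synthetases, which make those conjugates, summed to 87.9, 75.7, 79.4 and 81.0 RPKM. In pollinated against receptive gall flowers 3 hydrolases rose and none fell, of 6 above the minimum.

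Locus 30225, a match to the hydrolase ILR1-like 4, had 0.559, 0.629, 55.3 and 16.2 RPKM, from 47, 12, 5373 and 590 reads. It was under 1 RPKM in both receptive libraries and higher in both pollinated ones, above all in gall flowers. In gall flowers its level was 98.9 times higher after the foundress (74.3 to 135), and pollinated gall flowers exceeded pollinated seed flowers 3.42-fold (3.14 to 3.73). The rise in seed flowers, from 0.629 to 16.2 RPKM, was 25.7-fold (14.6 to 50.1) but stayed under the minimum of 20.

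Locus 2238, another ILR1-like hydrolase, had 12.6, 2.44, 67.7 and 8.75 RPKM, so gall flowers were above seed flowers at both stages. It rose 5.38-fold (5.07 to 5.70) in gall flowers and was 7.73 times higher (6.99 to 8.57) in pollinated gall than in pollinated seed flowers. Locus 1261, the most abundant hydrolase, stood at 58.5, 53.3, 144 and 122 RPKM. It separated the stages and not the flower types, with a rise of 2.47-fold (2.40 to 2.54) in gall and 2.28-fold (2.15 to 2.43) in seed flowers. Locus 1307, also ILR1-like, had 66.3, 39.4, 102 and 78.2 RPKM and did not reach 2-fold in any comparison. Locus 5405 was the only hydrolase called in receptive flowers, at 26.7 RPKM in gall and 11.5 RPKM in seed flowers.

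Among the amido synthetases, 1 transcript rose and the abundant one was nearly flat. Locus 12222 had 1.19, 2.13, 12.6 and 21.8 RPKM, low before the foundress and higher afterwards in both flower types. The rise was 10.2-fold (7.82 to 13.6) in seed flowers and, under the minimum, 10.6-fold in gall flowers. Locus 560, the most abundant synthetase, had 41.1, 33.4, 37.6 and 28.5 RPKM. Locus 9730 fell in seed flowers, from 23.7 to 11.3 RPKM.

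Influx carriers of auxin differed little in sum between the libraries. Efflux carriers summed 1.39-fold higher in gall than in seed flowers before the foundress and 1.60-fold higher after. The 4 influx carriers, which bring auxin into the cell, summed to 141, 113, 136 and 141 RPKM, and the 8 efflux carriers, which let it out, to 84.6, 61.0, 97.0 and 60.7 RPKM. Locus 3395, the most abundant influx carrier, had 65.6, 44.4, 62.2 and 55.0 RPKM. Locus 13004, also an influx carrier, had 40.7, 30.7, 32.6 and 34.3 RPKM, and Locus 1561 had 21.8, 24.8, 32.2 and 45.3 RPKM. No influx carrier changed 2-fold. Of 5 carriers above the minimum the only one past 2-fold was Locus 1200, an efflux carrier family protein, at 38.9 RPKM in receptive gall against 15.9 RPKM in receptive seed flowers, and Kal's test called 2 carriers higher between the receptive libraries and 1 between the seed libraries. A weaker carrier, the efflux carrier-like Locus 1306, had 6.63, 3.02, 14.6 and 3.82 RPKM and stayed under the minimum.

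The perception and response machinery, like the influx carriers, differed little between libraries. Locus 4035, matching the F-box receptor AFB2, had 24.6, 42.4, 20.3 and 30.9 RPKM, and Locus 21966, matching auxin-binding protein 1, had 22.1, 19.9, 24.8 and 29.1 RPKM, and neither was called in any comparison. None of the 17 auxin response factors, the transcription factors that bind auxin-responsive promoters, was called at 2-fold in any of the 4 comparisons, with 8 or 9 of them above the minimum, and Kal's test called 1 higher between the receptive libraries and 1 between the seed libraries. Their highest level exceeded their lowest by a median of 1.81 times (1.09 to 2.95). The medians were 1.78 times (1.33 to 4.82) for carriers and 5.73 times (1.29 to 18.0) for SAUR transcripts, both of mean RPKM above 5. Locus 645, matching response factor 2, a repressor of auxin-responsive genes in Arabidopsis, had 108, 100, 108 and 109 RPKM. Locus 11167 had 43.3, 30.6, 36.9 and 40.9 RPKM, and Locus 3406 had 38.8, 39.1, 29.5 and 38.0 RPKM. In receptive flowers 13 of the 17 had a higher value in gall flowers, with a median log2 ratio of 0.47, and in pollinated flowers the median was -0.01, which TMM scaling turns to above 0. The response factors were long transcripts (2276 to 8937 bp), and all transcripts of at least 2500 bp had a median log2 ratio of 0.26 in the receptive comparison.

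Aux/IAA transcripts, of a family whose typical members are repressors that auxin removes, were abundant and moved in different directions. The group summed to 1289, 1314, 944 and 1304 RPKM, so that pollinated gall flowers had the lowest sum. In receptive flowers 3 were higher in gall and 2 higher in seed flowers, of 9 above the minimum. Locus 2344 had 208, 463, 155 and 259 RPKM and was 2.22 times lower (2.17 to 2.27) in receptive gall than in receptive seed flowers. Locus 24660 had 161, 336, 211 and 338 RPKM and was 2.09 times lower (2.02 to 2.17) in the same comparison. With TMM scaling their log2 ratios, -0.92 and -0.84, no longer reached 2-fold. Both kept a higher value in seed flowers after the foundress, at less than 2-fold.

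Locus 16020 and Locus 28963 had the opposite order in receptive flowers. After the foundress it reversed, with the higher value in seed flowers at less than 2-fold. Locus 16020 had 152, 55.7, 118 and 200 RPKM, a level 2.74 times higher (2.57 to 2.92) in receptive gall than in receptive seed flowers and a 3.60-fold rise (3.37 to 3.84) in seed flowers. Locus 28963 had 383, 149, 188 and 301 RPKM. It was 2.56 times higher (2.41 to 2.73) in receptive gall flowers, then fell 2.04-fold (1.98 to 2.10) in gall flowers and rose 2.02-fold (1.88 to 2.16) in seed flowers.

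Matches to Arabidopsis IAA33 and IAA4 separated the flower types and the stages. Locus 742 (IAA33) had 66.3, 20.2, 105 and 35.4 RPKM and was higher in gall flowers both before (3.28-fold, 2.89 to 3.73) and after the foundress (2.96-fold, 2.76 to 3.18). Locus 6854 (IAA4) had 209, 136, 41.8 and 49.2 RPKM, and both pollinated libraries lay below both receptive ones. It fell 4.99-fold (4.81 to 5.18) in gall and 2.76-fold (2.58 to 2.95) in seed flowers. Locus 995 (IAA14) was lower in pollinated gall than in pollinated seed flowers, at 20.6 against 43.9 RPKM.

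SAUR transcripts, named for their quick response to auxin and linked in Arabidopsis to cell expansion, were highest in receptive seed flowers and lowest in pollinated gall flowers. Their summed level was 471, 1134, 259 and 433 RPKM. Above the RPKM minimum no SAUR transcript was at least 2-fold higher in any of the 4 comparisons (4, 4, 3 and 5 were with no minimum but 10 reads), and Kal's test called 1 higher, in pollinated against receptive seed flowers. In receptive gall against receptive seed flowers 11 of 15 were lower, in pollinated gall against pollinated seed flowers 3 of 5 were lower, 5 of 6 fell in gall flowers and 12 of 16 fell in seed flowers. The 15 and 16 tested against receptive seed flowers include transcripts above 20 RPKM in that library alone. Such a transcript cannot be called higher there, so these counts follow in part from the minimum. It was not tested where receptive seed flowers were not compared. With no minimum but 10 reads, 29, 22, 23 and 26 of 50, 49, 51 and 49 were at least 2-fold lower. Of the 52, 24 had a mean RPKM above 5 and 16 exceeded 20 in a library. The median log2 ratios of those 24 were -1.14, -1.04, -1.56 and -1.59 in the same order of comparisons, against -0.10, -0.13, 0.03 and 0.06 for all transcripts of that abundance. Of all 52, at any level, 10, 11, 20 and 15 had a higher value and 42, 41, 32 and 37 a lower one. Among all 54550 transcripts 22911, 30749, 32690 and 22731 were higher and 18085, 22276, 20712 and 15988 lower. The fall with stage was thus less uniform over the 52 than over the 24.

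Single SAUR transcripts repeated this order. Locus 13941, matching auxin-induced protein 6B of soybean, had 34.2, 113, 7.25 and 30.1 RPKM and was called lower in all 4 comparisons. It was 3.29 times lower (3.00 to 3.60) in receptive gall than in receptive seed flowers and 4.15 times lower (3.56 to 4.86) in pollinated gall than in pollinated seed flowers, and it fell 4.72-fold (4.13 to 5.41) in gall and 3.74-fold (3.32 to 4.22) in seed flowers. Locus 44490, matching auxin-induced protein 10A5, had 43.9, 121, 9.07 and 19.5 RPKM. Both receptive values lay above both pollinated ones, with falls of 4.85-fold (4.22 to 5.58) in gall and 6.22-fold (5.31 to 7.30) in seed flowers. Locus 16002 had 31.2, 133, 8.23 and 19.8 RPKM and fell 3.80-fold (3.29 to 4.40) in gall and 6.71-fold (5.77 to 7.82) in seed flowers. Locus 8766 had 30.0, 70.9, 6.52 and 11.3 RPKM, falling 4.60-fold (3.85 to 5.52) and 6.26-fold (5.0 to 7.91).

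The strongest fall belonged to a fragment. The most abundant SAUR was lower in gall than in seed flowers like the group, but did not share its fall in seed flowers. Locus 48303, only 181 bp long, had 13.7, 47.2, 2.62 and 4.24 RPKM from 127, 99, 28 and 17 reads, and fell 11.1-fold (6.61 to 19.9) in seed flowers. Locus 49593 had 16.2, 65.4, 3.76 and 13.8 RPKM, 4.04 times lower (3.52 to 4.64) in receptive gall than in receptive seed flowers. Locus 28400 had 5.02, 20.7, 2.05 and 3.56 RPKM, 4.13 times lower (3.23 to 5.27) in the same comparison. Locus 24756, of highest mean level, had 38.1, 53.6, 35.7 and 78.3 RPKM and was highest in pollinated seed flowers. It was 2.20 times lower (2.02 to 2.39) in pollinated gall than in pollinated seed flowers, a log2 ratio of -0.95 with TMM scaling, and did not reach 2-fold elsewhere.

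**Figure D2:**
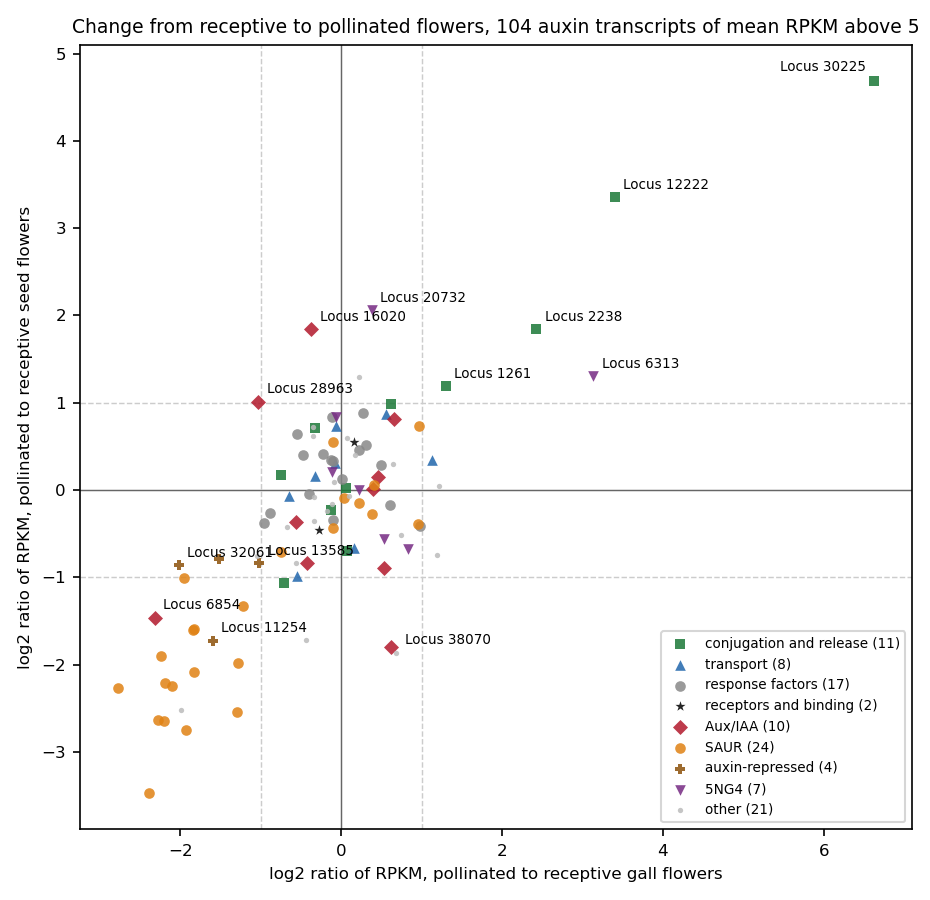
Log2 ratio of RPKM from receptive to pollinated gall flowers (horizontal) against the same in seed flowers (vertical) for the 104 auxin transcripts of mean RPKM above 5, by group. Dashed lines mark 2-fold. Most SAUR transcripts sit in the lower left, with both ratios below 1 in 17 of 24, and Locus 30225 and Locus 12222 lie farthest to the upper right.

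Transcript length moved with part of the SAUR pattern. Most SAUR transcripts were short, with a median of 543 bp. Among all transcripts of 300 to 800 bp, 46.8% were lower in receptive gall than in receptive seed flowers, against 10 of 14 SAUR transcripts of that length. The other shares were 4.57% against 3 of 5 between the pollinated libraries, 6.68% against 5 of 6 between the gall libraries, and 23.2% against 11 of 15 between the seed libraries. With the trend of the median log2 ratio with length removed, 6 SAUR transcripts remained lower in receptive gall flowers in place of 11 and the median became -0.58, whereas in pollinated against receptive gall flowers 5 were lower as before, at a median of -1.69. A split at 800 bp, chosen after the values were seen, placed 20 transcripts of mean RPKM above 5 below it and 4 at or above it. The 20 had a median log2 ratio of -1.84 in pollinated against receptive gall flowers, with 18 of them below 1 as a ratio, while the 4 longer ones all lay above 1, with a median log2 ratio of 0.40.

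**Figure D3:**
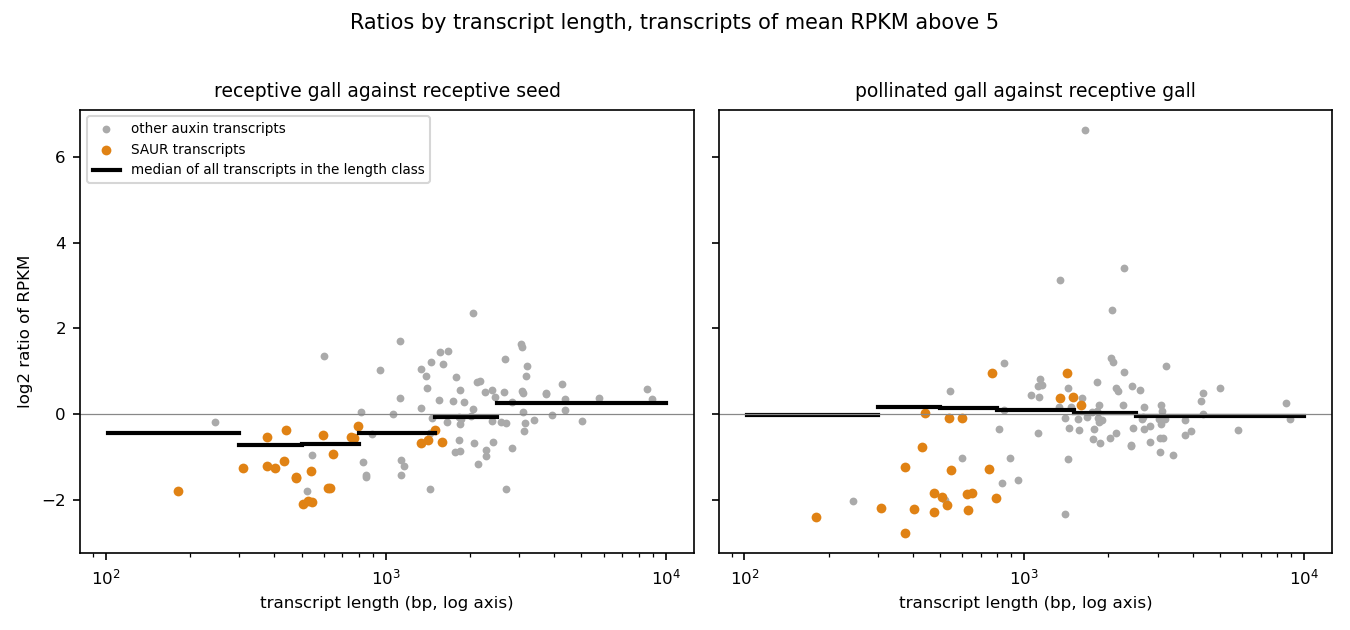
Log2 ratio of RPKM against transcript length (log axis) in receptive gall against receptive seed flowers (left) and pollinated against receptive gall flowers (right), for auxin transcripts of mean RPKM above 5. Black bars are medians of all transcripts in 6 length classes, the last drawn only to the end of the axis. On the left the bars climb with length and the SAUR transcripts lie near or below them, and on the right the bars lie near 0 while most SAUR transcripts under 800 bp lie far below.

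The auxin-repressed and dormancy-associated proteins, known from strawberry fruit and pea buds as transcripts that auxin or growth lowers, fell together with the SAUR transcripts. The 4 transcripts summed to 813, 1382, 315 and 565 RPKM, and all 4 had lower values in both pollinated libraries than in the receptive library of the same flower type. All 3 above the minimum fell in gall flowers and 1 of 3 fell in seed flowers. Locus 11254 had 370, 806, 123 and 244 RPKM, a fall of 3.02-fold (2.93 to 3.11) in gall and 3.31-fold (3.19 to 3.43) in seed flowers. Locus 13585, a dormancy-associated protein, had 329, 455, 163 and 255 RPKM and fell 2.02-fold (1.97 to 2.08) in gall flowers. Locus 32061, a fragment of 245 bp, had 99.7, 113, 24.6 and 62.3 RPKM and fell 4.05-fold (3.59 to 4.56) in gall flowers. Reads with more than 1 possible origin were 8.05% of the reads of this group, so its members may share reads.

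Transcripts matching 5NG4, a nodulin-like membrane protein found in pine as an auxin-induced transcript during rooting, leaned to gall flowers. Of 7 with a mean RPKM above 5, 6 were higher in gall flowers before and 6 after the foundress, with median log2 ratios of 1.05 and 0.75. Among all 16529 transcripts of that abundance 7599 were higher in gall flowers before and 6682 after, with medians of -0.10 and -0.13. Locus 3001 had 85.4, 27.3, 79.1 and 31.5 RPKM, 3.13 times higher (2.93 to 3.35) in receptive and 2.51 times higher (2.40 to 2.63) in pollinated gall flowers than in seed flowers of the same stage. Locus 6313 had 2.94, 1.42, 25.8 and 3.51 RPKM, and only pollinated gall flowers were high. It rose 8.78-fold (7.60 to 10.2) in gall flowers and exceeded pollinated seed flowers 7.36-fold (6.04 to 9.05). Locus 4427 had 59.8, 35.0, 86.6 and 23.8 RPKM, 3.64 times higher (3.42 to 3.87) in pollinated gall than in pollinated seed flowers.

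The 2 most abundant 5NG4 matches had that order at 1 stage only. Locus 19811 had 105, 280, 187 and 175 RPKM and was 2.67 times lower (2.57 to 2.79) in receptive gall than in receptive seed flowers, and its pollinated values differed little. Locus 20732 had 58.8, 26, 76.5 and 108 RPKM, higher in receptive gall than in receptive seed flowers (2.26-fold, 2.06 to 2.49), and rose 4.16-fold (3.79 to 4.58) in seed flowers. It is through Locus 19811 that the summed level of the group was nearly equal in receptive flowers, at 361 RPKM in gall and 393 RPKM in seed flowers. Reads of more than 1 possible origin were 6.08% of the group's reads.

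The 30 other transcripts, called auxin-induced, auxin-responsive or auxin-regulated without a family, held 15 above an RPKM of 20. Locus 1722, matching the tobacco protein PCNT115, an aldo-keto reductase, had 185, 98.7, 174 and 105 RPKM, higher in gall flowers at both stages but under 2-fold. Locus 1435 had 162, 175, 101 and 131 RPKM and was not called. Locus 481, matching AIR12, a cytochrome b protein from Arabidopsis root cultures, had 123, 94.6, 90.8 and 28.7 RPKM, with pollinated seed flowers low. It fell 3.29-fold (3.00 to 3.62) in seed flowers and was 3.16 times higher (2.92 to 3.42) in pollinated gall than in pollinated seed flowers. Locus 16613 had 28.1, 75.2, 30.2 and 71.9 RPKM, following flower type and not stage, with gall flowers 2.67 times lower (2.44 to 2.93) before and 2.38 times lower (2.21 to 2.57) after the foundress. The first became a log2 ratio of -0.90 with the length trend removed.

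**Figure D4:**
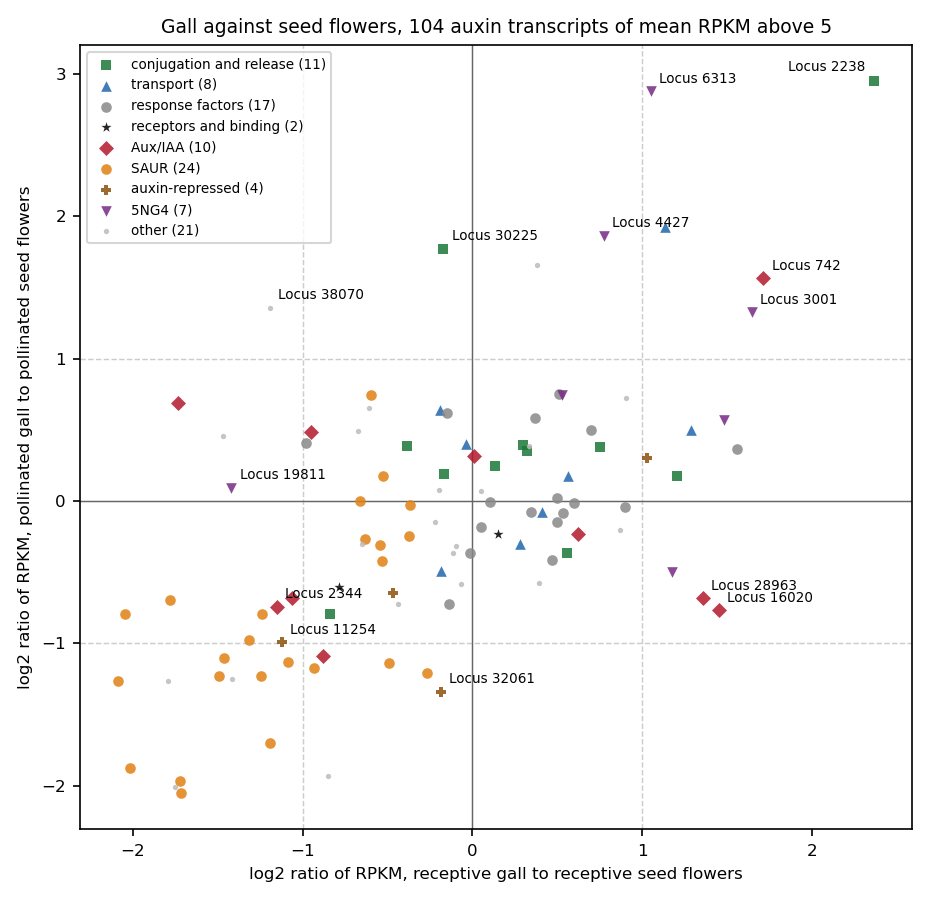
Log2 ratio of RPKM of gall to seed flowers before the foundress (horizontal) and after (vertical) for the 104 auxin transcripts of mean RPKM above 5, by group. Dashed lines mark 2-fold. SAUR transcripts fill the lower left, with both ratios below 1 in 21 of 24, Locus 742 and Locus 3001 pass 2-fold and the RPKM minimum at both stages, and Locus 38070 changes side.

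The comparison of flower types before the foundress and the one after it share no library, so calls made in both can be counted. Gall flowers were higher at both stages for 2 of 53 auxin transcripts above the minimum in both, Locus 742 and Locus 3001, and lower for 3, 2 SAUR transcripts and Locus 16613, against 5.06% and 2.40% of all transcripts. Pollinated flowers were higher in both flower types for 1 of 55, Locus 1261, and lower for 7, against 1.37% and 1.97%. The 7 were 5 SAUR transcripts, Locus 11254 and Locus 6854. Among transcripts of mean RPKM above 5, both stage ratios lay below 1 for 17 of 24 SAUR transcripts and for 20.2% of all, and both flower-type ratios for 21 of 24 SAUR transcripts and 39.9% of all.

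A fit over all 4 libraries with additive terms for stage and flower type (edgeR's quasi-likelihood test with Benjamini-Hochberg adjustment over 27007 transcripts) takes the departure from additivity as its spread, with 1 residual degree of freedom. It called 2 of 149 auxin transcripts for stage, both higher in pollinated flowers, against 0.174% higher, 0.0629% lower and 0.237% in either direction among all transcripts. Locus 30225 had a log2 fold change of 5.76 ± 0.65 (SE) and an adjusted p of 0.0188 by edgeR. Locus 12222 had 3.36 ± 0.45 (SE) and an adjusted p of 0.04 by edgeR. The SAUR Locus 44490 came next, at -2.48 ± 0.44 (SE) with an adjusted p of 0.0733 by edgeR, and did not pass. At an unadjusted p under 0.05 the stage term held 41 of the 149 (15 higher, 26 lower) and 5.46% of all transcripts. For flower type edgeR called 0 of 149 and 0% of all transcripts, with 33 of 149 and 12.3% of all at an unadjusted p under 0.05. DESeq2, fitted without that filter, called 7 of 162, 6 of them higher in gall flowers, beside 1075 of 53609 transcripts in all.

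A further 79 transcripts were picked by names of other auxin pathway proteins. The names also matched wider families, such as 20 cullins and 15 flavin monooxygenases, so some may lie outside the pathway. Some had reads in pollinated gall flowers alone, such as Locus 14535, a cullin-3 match, with 0, 0, 425 and 0 reads. Whether these came from the wasp was not tested. The higher calls of the 79 lay near the shares of all transcripts, 18.2%, 9.45%, 6.92% and 10.9%. Their lower calls lay below the shares of all transcripts, 23.3%, 4.91%, 5.80% and 11.4%. In receptive gall against receptive seed flowers 4 of 23 above the minimum were higher and 2 lower, between the pollinated libraries 2 of 25 were higher in gall flowers and 0 lower, and after the foundress 1 of 24 rose and 0 fell in gall flowers and 2 of 22 rose and 0 fell in seed flowers. TOPLESS proteins, the corepressors that Aux/IAA proteins recruit, gave 3 of the 4 higher ones in receptive gall flowers, of 5 TOPLESS matches above the minimum. Locus 3010 had 119, 22.8, 120 and 76.0 RPKM, Locus 1477 had 65.2, 2.44, 43.2 and 10.3 RPKM, and Locus 1425 had 54.4, 18.5, 37.1 and 35.1 RPKM, each lowest in receptive seed flowers. Of the TOPLESS matches not called there, Locus 1602 had 39.3, 31.1, 37.1 and 31.6 RPKM. Locus 15367 had 53.0, 74.5, 80.2 and 90.1 RPKM, lower in receptive gall than in receptive seed flowers. The TIR1 receptor matches Locus 18431 and Locus 2287, between 14.7 and 30.1 RPKM in every library, were not called. Of synthesis genes, Locus 462, a tryptophan aminotransferase-related protein, had 49.2, 60.4, 84.1 and 59.2 RPKM and was not called. Locus 4140, a match to YUCCA2, had 0.747, 0.433, 4.09 and 1.31 RPKM, from 76, 10, 480 and 58 reads. Its level after the foundress was 5.47 times higher in gall and 3.04 times higher in seed flowers, but stayed under the minimum. The single rise in gall flowers was Locus 9245, an aliphatic nitrilase, with 2, 1, 10426 and 0 reads, present almost only in the library that also held the wasp reads, whose part in it was not tested.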

How the data were processed

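RNA of 4 flower types was sequenced with paired reads of 100 bp, 1 library each. The authors checked reads with FastQC 0.10.0, trimmed them with Trimmomatic 0.22 (the first 10 bp removed, reads under 75 bp dropped), assembled all libraries together, and mapped each library to 54550 transcripts with CLC Genomics Workbench. Read counts per transcript, total and unique, were taken unscaled as the authors deposited them. The deposited RPKM is the total count scaled by transcript length and library total, and was rebuilt to within 5.0e-04. A further 12 columns, 3 for each library, repeat others and were not used. Whether both mates of a pair were counted is not given in the sources used here, so counting intervals may be too narrow.

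Ratios of RPKM have exact conditional binomial 95% intervals, and 0 reads were set to 3. Kal's Z-test was run on RPKM as a share of the library's sum. The additive fit used edgeR 4.0.16 (TMM, filterByExpr) in R 4.3.3, with DESeq2 1.42.0 as an alternative. The SE beside its log2 fold changes was derived as their absolute value divided by the square root of the F statistic, and is approximate. Python 3.11.15, NumPy 2.4.6, SciPy 1.17.1 and pandas 2.3.3 did the rest, and Matplotlib 3.10.9 drew the plots. Each method was tested on simulated data. For the additive fit the simulated spread was smaller than the one fitted here (square root of the common dispersion 0.408). That trial therefore does not show how the fit performs at the spread of these data.

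Named were the 3 most abundant transcripts of each group and, in each comparison and direction, the 3 largest changes with at least 10 reads in both libraries. Named outside this rule, after their values were seen, were Locus 5405, 9730, 1200, 1306, 995 and 38070, and in the last paragraph of the results all transcripts. Transcripts, groups and lists were chosen with earlier results of these data known. Alternatives were other fold thresholds, RPKM minimums, scalings, unique reads, an added RPKM of 1, removal of the length trend, and transcripts of at least 300 bp.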

Additional observations from a re-analysis of the deposited data

Results flagged for a closer look

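Both transcripts below went past 2-fold in opposite directions in 2 comparisons that share no library. The differences between the comparisons were not tested, since each flower type had 1 library. Locus 38070, called auxin-induced protein, had 13.3, 30.3, 21.4 and 8.34 RPKM in receptive gall, receptive seed, pollinated gall and pollinated seed flowers. Its ratio of gall to seed flowers was 0.438 before the foundress and 2.56 after. Locus 28963, an Aux/IAA repressor, had a ratio of pollinated to receptive flowers of 0.490 in gall flowers and 2.02 in seed flowers. Its 4 values, 383, 149, 188 and 301 RPKM, were highest in receptive gall and lowest in receptive seed flowers.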

How the results depend on the processing

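Values for the comparisons are given in the order receptive gall against receptive seed, pollinated gall against pollinated seed, pollinated against receptive gall, and pollinated against receptive seed flowers. Auxin transcripts past 2-fold numbered 26, 14, 17 and 23, of 68, 60, 62 and 68 tested. The shares of all transcripts were 41.5%, 14.4%, 12.7% and 22.4%. The auxin counts became 39, 28, 27 and 40 at 1.5-fold and 9, 6, 10 and 18 at 3-fold. They became 47, 32, 38 and 38 of 113, 108, 113 and 113 with an RPKM above 5. With no minimum but 10 reads they became 64, 56, 57 and 58 of 151, 155, 157 and 146. Higher and lower shares of all transcripts at 1.5-fold were 26.9% and 36.1%, 17.1% and 16.7%, 15.9% and 14.3%, and 20.8% and 24.5%. At 3-fold they were 10.8% and 9.95%, 4.58% and 1.54%, 3.29% and 1.99%, and 5.11% and 4.13%. With an RPKM above 5 the shares were 18.7% and 23.1%, 11.5% and 6.41%, 9.56% and 5.85%, and 13.5% and 13.1%. With no minimum but 10 reads they were 18.8% and 23.2%, 29.8% and 10.1%, 33.5% and 9.59%, and 18.6% and 15.4%. SAUR transcripts past 2-fold lower numbered 11, 3, 5 and 12, of 15, 5, 6 and 16 tested. They became 6, 1, 4 and 11 at 3-fold, and 22, 10, 16 and 22 of 34, 21, 26 and 34 with an RPKM above 5. With no minimum they became 29, 22, 23 and 26 of 50, 49, 51 and 49. TMM scaling left 1 in the second comparison and removal of the length trend left 6 in the first. Kal's test gave 30, 18, 19 and 30 of 75 auxin transcripts, and on read counts 68, 67, 70 and 64. Of all 10434 transcripts above the minimum it called 4294, 1677, 1569 and 2924, and on read counts 9315, 8672, 8830 and 8627. Asking for 2-fold in addition left 11 auxin transcripts in the second comparison, of 1014 in all. The additive fit in edgeR called 2 auxin transcripts for stage, both higher, of 64 in all. It called 23 without a filter (8 higher, 15 lower, of 3489 in all), and DESeq2 called 12 (3 higher, 9 lower, of 562 in all). For flower type the counts were 0, 17 (12 higher, 5 lower, of 4222) and 7 (6 higher, 1 lower, of 1075). TMM scaling moved the median log2 ratio of all transcripts from -0.10 to 0.13 in the first comparison and from -0.13 to 0.06 in the second. The higher and lower calls of auxin transcripts then became 11 and 12 in the first, in place of 7 and 19, and 8 and 3 in the second, in place of 8 and 6. With TMM scaling the shares of all transcripts were 23.7% and 16.4% in the first and 12.7% and 3.08% in the second. None of the named ratios past 2-fold changed sign under the 5 alternatives run on them (TMM or median ratio scaling, unique reads, an added RPKM of 1, length trend removed). In the first comparison Locus 11254 (-0.89 with TMM scaling) and, with the length trend removed, Locus 44490 (-0.83) and Locus 8766 (-0.66) no longer reached 2-fold on the log2 scale. Without its most abundant member, the auxin-repressed sum was 1.79 times lower in pollinated than in receptive seed flowers, in place of 2.45, and the 5NG4 sum became 2.29 times higher in receptive gall than in receptive seed flowers. No paired analysis was possible because the labels carry no replicate number to pair by, apart from the additive fit, which compares flower types within a stage and stages within a flower type. Depth was least in receptive seed flowers, where counting error limits transcripts near the floor.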

Other observations

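Some auxin transcripts below the RPKM minimum had nearly all their reads in pollinated gall flowers. Locus 11180, a 5NG4 match, had 20, 0, 171 and 2 reads in receptive gall, receptive seed, pollinated gall and pollinated seed flowers, and Locus 26910, another 5NG4 match, had 0, 0, 16 and 0 reads. These were picked after their values were seen and enter no count of changed transcripts.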
